A study of Mus musculus with 2 samples.

Results

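The genes described here encode 10 proteins of the centrosome, the mitotic spindle and the midbody that are mutated in primary microcephaly in humans, a condition in which the brain is small from birth. They were taken by symbol as a fixed list and matched to the gene rows by identifier, and all 10 of the 10 listed were found among 43346 annotated genes. The members are Aspm, Wdr62, Cdk5rap2, Cenpj, Stil, Mcph1, Cep152, Cep135, Cep63 and Cit. Total RNA longer than 200 nucleotides was sequenced from the dissected hindbrain of healthy B6NCrl mouse embryos at 10.5 days, with males and females mixed. There was 1 group of 2 biological replicates, a pool of 51 embryos (replicate 2) and a pool of 69 embryos (replicate 1), and 10 ng of RNA with spike-in RNAs entered each library. The labels record no allele, treatment or other age and give both pools the same donor identifier. With 1 group there was no comparison between conditions, and the pools could only be set against each other. Expected counts in annotated genes summed to 36382245 in replicate 2 and 38170090 in replicate 1.

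The centrosome is built around a pair of centrioles and forms the poles of the mitotic spindle. Each centriole is copied once per cell cycle: the kinase Plk4, brought to the parent centriole by scaffold proteins, recruits Stil and Sass6, a cartwheel forms, and the new centriole then elongates. The neuroepithelial cells of the embryonic neural tube divide at the ventricle, and the number of centrioles and the orientation of the spindle bear on whether such a cell divides into further progenitors or gives rise to a neuron. Among the members, Cep63, Cep152, Cep135, Stil and Cenpj act in centriole duplication, Cdk5rap2 in the material around the centrioles, Wdr62 and Aspm at the spindle poles, Mcph1 in the timing of mitosis and chromosome condensation, and Cit at the midbody, where the daughter cells part.

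Promoter sequences were read because many genes of dividing cells carry shared elements near their start. The CCAAT box is bound by the factor NF-Y, and the sequences TTTGAA and TTTAAA are forms of the cell cycle genes homology region, through which the DREAM and MuvB complexes act on genes of G2 and mitosis. RefSeq gave a window (GRCm38.p6, the mm10 assembly) for 9 of the 10 members, from 250 bases before to 50 bases after the annotated start, 300 bases in all. Both strands were searched, ATTGG being CCAAT on the other strand, and TTTAAA reads the same on both strands. No motif searched contains another. The windows below are those of the 4 members with 3 CCAAT motifs, in which the spacing can be compared, and that of Cenpj, the member with the highest ratio between the pools, whose window held none of the motifs. They are written 5′ to 3′ on the strand of the gene, with the motifs in capitals. The Aspm window lies at chr1:139454523-139454822 (plus strand), that of Wdr62 at chr7:30280372-30280671 (minus strand), that of Stil at chr4:114999868-115000167 (plus strand) and that of Cep152 at chr2:125625064-125625363 (minus strand). The Cenpj window lies at chr14:56571797-56572096 (minus strand), at a RefSeq start that is inside the gene as annotated in GENCODE M21. The single Cenpj transcript in the deposited table begins at chr14:56571846, inside this window.
Aspm: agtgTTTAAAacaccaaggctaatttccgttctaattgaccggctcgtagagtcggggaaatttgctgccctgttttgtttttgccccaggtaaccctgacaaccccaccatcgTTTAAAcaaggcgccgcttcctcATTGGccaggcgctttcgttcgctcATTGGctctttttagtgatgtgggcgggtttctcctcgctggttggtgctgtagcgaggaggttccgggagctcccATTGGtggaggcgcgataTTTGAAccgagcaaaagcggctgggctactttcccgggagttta
Wdr62: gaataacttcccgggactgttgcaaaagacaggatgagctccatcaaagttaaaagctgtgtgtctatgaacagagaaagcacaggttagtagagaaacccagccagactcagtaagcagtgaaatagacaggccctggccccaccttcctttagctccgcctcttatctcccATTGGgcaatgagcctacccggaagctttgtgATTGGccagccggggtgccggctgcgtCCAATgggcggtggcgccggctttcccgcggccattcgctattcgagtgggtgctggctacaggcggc
Stil: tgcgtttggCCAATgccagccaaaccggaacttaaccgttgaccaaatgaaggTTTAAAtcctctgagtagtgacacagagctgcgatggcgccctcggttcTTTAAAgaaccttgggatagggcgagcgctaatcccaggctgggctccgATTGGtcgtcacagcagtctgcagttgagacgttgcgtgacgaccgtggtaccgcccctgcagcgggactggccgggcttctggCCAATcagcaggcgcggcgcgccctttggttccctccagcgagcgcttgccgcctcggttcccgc
Cep152: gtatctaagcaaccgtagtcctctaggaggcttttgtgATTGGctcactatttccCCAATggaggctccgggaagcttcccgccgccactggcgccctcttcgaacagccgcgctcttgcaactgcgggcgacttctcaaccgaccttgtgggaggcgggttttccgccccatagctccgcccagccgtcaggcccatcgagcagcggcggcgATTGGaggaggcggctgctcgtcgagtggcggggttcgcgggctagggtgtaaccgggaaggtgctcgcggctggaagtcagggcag
Cenpj: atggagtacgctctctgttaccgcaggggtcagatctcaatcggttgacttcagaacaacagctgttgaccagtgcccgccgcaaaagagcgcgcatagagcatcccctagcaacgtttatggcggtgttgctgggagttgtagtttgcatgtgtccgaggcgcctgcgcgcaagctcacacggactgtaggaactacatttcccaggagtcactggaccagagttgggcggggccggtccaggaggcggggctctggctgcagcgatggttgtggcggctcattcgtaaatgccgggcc

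The 3 CCAAT motifs of Aspm began at positions -113, -88 and -12 from the start, on the strand opposite to the gene, 25 and 76 bases apart. Those of Wdr62 were at -77, -45 and -18, with spacings of 32 and 27 bases; a second RefSeq start of Wdr62 gave an overlapping window with the same 3 motifs. In Stil they were at -241, -99 and -15, and in Cep152 at -212, -195 and -37. Cep135 had 1, at -127. At least 1 CCAAT was therefore found in 5 of the 9 windows, against 37.4% of 32841 RefSeq windows, and at least 3 in 4 of 9, against 3.37% of all windows. TTTGAA occurred in Aspm at position 7 after the start and in Cdk5rap2 at position 27, that is in 2 of 9 windows and 17.9% of all. TTTAAA occurred in Aspm and in Stil, likewise 2 of 9, against 13.2% of all. Aspm and Stil were the 2 members whose windows held both CCAAT and 1 of these 2 sequences, which 10.7% of all windows did. Among the 16 genes of a list of proliferating cells, 15 had a window, of which 14 held CCAAT and 11 held both kinds. At least 3 CCAAT were found in 6 of these 15, a share near that of the members. The windows of Cenpj, Cep63 and Cit had none of the 3 motifs. The Cep63 window reaches up to chr9:102626374, on the minus strand. Cep63-206, the transcript with most of the TPM of that gene, starts at chr9:102626534, so its own start was not searched. A match is a run of letters and says nothing of whether a factor was bound.

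All 10 members were detected, which here means 1 TPM or more in each of the libraries. TPM is a level per transcript length, scaled so that each library has the same total. The same held for 58.8% of the protein-coding genes and for 33.0% of all annotated genes. The median of the members was 16.79 TPM in replicate 2, against 12.61 TPM in replicate 1, under the median of the detected protein-coding genes in each library, 20.05 TPM in replicate 2 and 19.09 in replicate 1. Summed over the members, the level was 181.56 TPM in replicate 2, against 135.88 TPM in replicate 1. The total to which TPM is scaled includes the spike-ins, at 7.82% in replicate 2 and 13.03% in replicate 1. Because the tissue was whole, fewer cells that express a gene and less of its RNA per cell cannot be told apart.

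The order of the levels was nearly the same in both pools. Of the 45 pairs that the members form, 43 stood in the same order in replicates 2 and 1, and the exceptions were Wdr62 with Stil and Cenpj with Cep152. By mean level the order was Cit, Cep63, Cdk5rap2, Mcph1, Wdr62, Stil, Aspm, Cenpj, Cep152 and Cep135. Of the 9 neighbouring pairs in that order, 1 had ranges that did not overlap between the pools, Cep63 over Cdk5rap2. Both genes of a pair come from the same libraries, and all members had more TPM in replicate 2, so the ranges share that difference; within the libraries 7 of the 9 pairs kept their order in both. Cit and Cep63 were the 2 members above the median detected protein-coding gene.

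**Figure D1:**
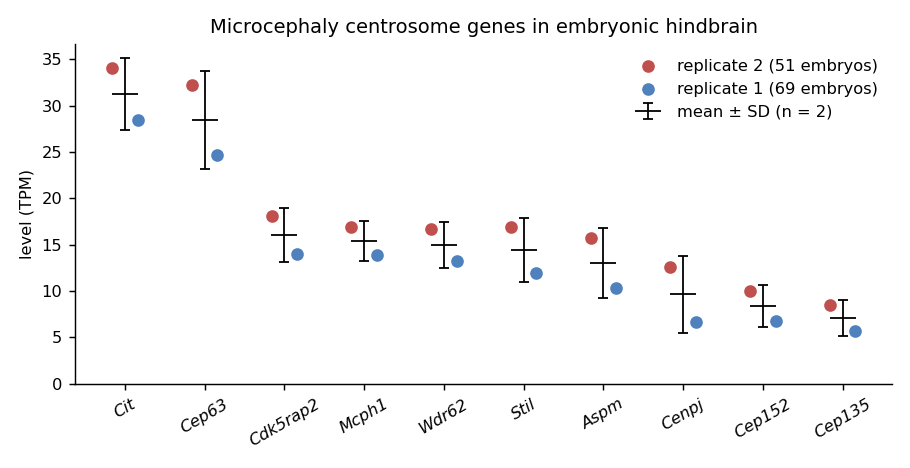
Level of each member in TPM (y axis) by gene (x axis), in order of the mean. Red points are replicate 2, blue points replicate 1, and the bars are the mean ± SD (n = 2); every red point lies above its blue one, and Cit and Cep63 stand above the other 8.

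Ratios between the pools were taken from counts, scaled with edgeR's TMM method so that the typical gene is at 0, and given as the log2 of replicate 2 over replicate 1 with a 95% exact (Clopper-Pearson) interval. The interval covers counting error only, and with 1 library on each side there is no replicate check and no p-value. Relative to the typical gene, 9 of the 10 members were higher in replicate 2, against 49.9% of the 15006 genes averaging 1 TPM or more. The median ratio of the members was 0.35, within a range of -0.01 to 0.82, and that of all these genes was 0.00. The interval lay above 0 for 9 members, against 31.1% of all genes, and below 0 for none, against 31.4%. No member was 2-fold or more higher in replicate 2, against 1.58% of all genes, or in replicate 1, against 4.30%. At 1.5-fold, 1 member was higher in replicate 2 (Cenpj), against 5.48%, and none in replicate 1, against 10.3%. The ratios of 95% of all genes lay between -1.29 and 0.83, and all members were inside that span. The quartiles of all genes were -0.23 and 0.20, and the 8 members other than Wdr62 and Cit were above the upper quartile. Counts summed over the members were 21421 in replicate 2 and 17885 in replicate 1, a ratio of 0.34 with an interval of 0.31 to 0.37.

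These ratios are shares of the library and not amounts per embryo. Spike-in RNA made up 7.82% of TPM in replicate 2, against 13.03% in replicate 1. With counts scaled to the spike-ins, the median over all genes was 0.81, all 10 members were higher in replicate 2, as were 93.2% of all genes, and their median was 1.17. On that scale 9 members were 2-fold or more higher in replicate 2, against 26.5% of all genes. In deposited TPM all 10 were higher in replicate 2, against 59.6% of all genes. With a pseudocount of 0.1 their median on that scale was 0.44, against 0.08 for all genes. Cenpj had the highest ratio of the members on all 3 scales.

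**Figure D2:**
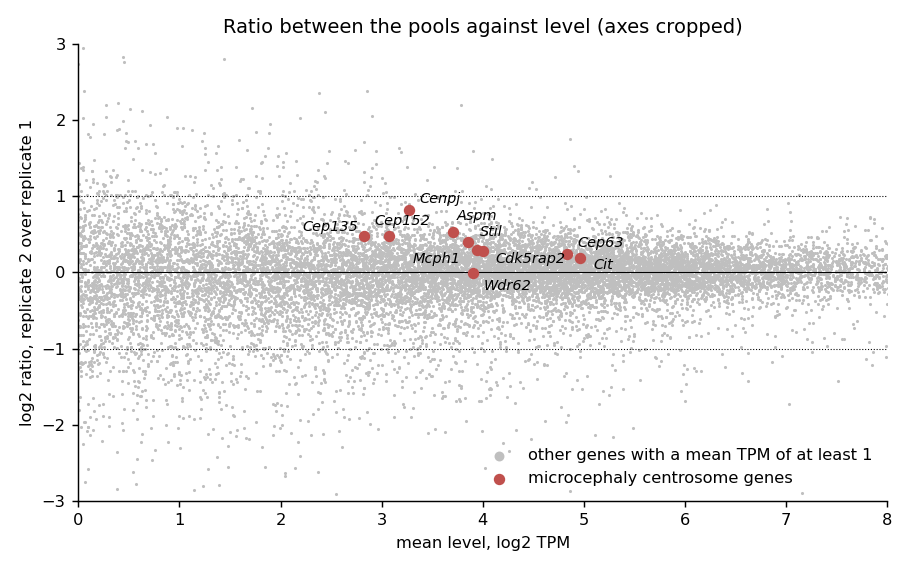
Ratio between the pools (y axis, log2 of replicate 2 over replicate 1, TMM-scaled counts) against mean level (x axis, log2 TPM) for genes averaging 1 TPM or more. Members are red and other genes grey, and dotted lines mark 2-fold; 9 of the 10 members lie above 0 and none passes 2-fold.

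Of the centriole duplication members, Cep63 was the highest. The protein forms, with Cep152, a ring around the parent centriole from which the new one grows. Cep63 (ENSMUSG00000032534, chr9:102584588-102626534, minus strand) was at 32.21 TPM in replicate 2, against 24.70 TPM in replicate 1, a mean of 28.5 ± 5.31 TPM (SD, n = 2 here and below). Its counts were 1587 in replicate 2 and 1415 in replicate 1. The ratio was 0.24 (interval 0.14 to 0.35), which 21.4% of all genes exceeded, and replicate 2 was the higher pool. At its 5′ end Cep63 overlaps Anapc13, a gene on the opposite strand at 136.55 TPM in replicate 2, against 152.47 TPM in replicate 1. Whether strand was used in counting is not given in the sources used here, so reads of the shared bases are uncertain. Transcript Cep63-206 held 82.6% of the TPM of the gene in replicate 2 and 82.5% in replicate 1, out of 9 transcripts of the gene.

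Cep152, the partner of Cep63 and a scaffold that brings Plk4 to the centriole, was among the low members. Cep152 (ENSMUSG00000068394, chr2:125563088-125625113, minus strand) was at 10.00 TPM in replicate 2, against 6.80 TPM in replicate 1, a mean of 8.40 ± 2.26 TPM. With 1374 counts in replicate 2 and 1042 in replicate 1, its ratio was 0.48 (interval 0.36 to 0.59). The level in replicate 2 was the higher, and 8.14% of all genes had a higher ratio. The ring partners thus differed in level, with Cep63 above Cep152 in both pools.

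Stil, which binds Plk4 and recruits Sass6 to start the new centriole, stood between them. Stil (ENSMUSG00000028718, chr4:115000159-115043196, plus strand) was at 16.87 TPM in replicate 2, against 11.97 TPM in replicate 1, a mean of 14.4 ± 3.46 TPM. It had 2007 counts in replicate 2 and 1599 in replicate 1, all whole numbers, so no read was divided with another gene. The ratio was 0.41 (interval 0.31 to 0.50), exceeded by 10.9% of all genes. Stil-201 held 93.7% of its TPM in replicate 2 and 94.7% in replicate 1.

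Cep135, a component of the cartwheel and of the centriole wall, was the lowest member in both pools. Cep135 (ENSMUSG00000036403, chr5:76588698-76646466, plus strand) was at 8.45 TPM in replicate 2, against 5.74 TPM in replicate 1, a mean of 7.10 ± 1.92 TPM. Counts of 1116 in replicate 2 and 847 in replicate 1 gave a ratio of 0.47 (interval 0.35 to 0.61), and 8.19% of all genes were above it. Replicate 2 was again the higher pool, and the level of Cep135 in it was still low among detected protein-coding genes (percentile 25.1 by mean level). Its TPM was divided between the coding transcript Cep135-202 (87.7% in replicate 2 and 79.8% in replicate 1) and Cep135-203. The second is annotated as keeping introns of 992 and 655 bases and had 12.3% in replicate 2 and 20.2% in replicate 1. In TPM the coding transcript was at 7.41 in replicate 2 and 4.58 in replicate 1, while the intron-retaining one was at 1.04 in replicate 2 and 1.16 in replicate 1. By these estimates the higher level of the gene in replicate 2 lay in the coding transcript. The split is estimated from reads, with 1 library on each side, and has no replicate check.

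Cenpj, also called CPAP, binds tubulin and sets the length of the growing centriole. Cenpj (ENSMUSG00000064128, chr14:56526761-56575425, minus strand) was at 12.57 TPM in replicate 2, against 6.72 TPM in replicate 1, a mean of 9.65 ± 4.14 TPM. It had 1299 counts in replicate 2 and 775 in replicate 1, whole numbers in the single transcript that the deposited table has for the gene. The ratio of 0.82 (interval 0.69 to 0.95), or 1.77-fold, was the highest of the members, and its interval overlapped none of the others. Of all genes 2.55% had a higher ratio. In replicate 2 Cenpj was above Cep152, and in replicate 1 it was just below it.

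Cdk5rap2 recruits and activates the gamma-tubulin ring complex, from which microtubules grow. Cdk5rap2 (ENSMUSG00000039298, chr4:70216856-70410443, minus strand) was at 18.11 TPM in replicate 2, against 13.98 TPM in replicate 1, a mean of 16.045 ± 2.92 TPM. Counts were 2498 in replicate 2 and 2163 in replicate 1, and the ratio was 0.29 (interval 0.20 to 0.37), with 18.1% of all genes above it. By level it followed Cit and Cep63 in both pools.

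The largest share of the TPM of Cdk5rap2 was not in a transcript annotated as coding. Cdk5rap2-201, which M21 places in the class of nonsense mediated decay, held 50.7% of the TPM in replicate 2 and 48.5% in replicate 1. The coding transcript Cdk5rap2-206 held 24.8% in replicate 2 and 26.0% in replicate 1. By counts, which weight its long 3′ end more, Cdk5rap2-206 held 51.2% in replicate 2 and 53.3% in replicate 1, so which of the 2 leads depends on the measure. Coding transcripts together held 46.7% of TPM in replicate 2 and 45.2% in replicate 1. Of counts they held 53.9% in replicate 2 and 56.0% in replicate 1. A short transcript of 711 bases, Cdk5rap2-205, also in the coding class, held 17.3% of TPM in replicate 2 and 11.95% in replicate 1. It shares the strand with the pseudogene Ywhaq-ps3 inside the gene, at 11.73 TPM in replicate 2, against 9.70 TPM in replicate 1, and its share is uncertain for that reason. Within the coding part, 3 exons of Cdk5rap2-206 are absent from Cdk5rap2-201, of 111, 77 and 219 bases. The first 2 are shown because the 77-base exon, unlike the others, is not a multiple of 3 and its absence shifts the reading frame. They lie at chr4:70380191-70380301 and chr4:70376793-70376869 (minus strand, mm10, GENCODE M21 transcripts) and are in capitals, between 20 bases on each side from the transcript in lower case.
Cdk5rap2-206 exon of 111 bases: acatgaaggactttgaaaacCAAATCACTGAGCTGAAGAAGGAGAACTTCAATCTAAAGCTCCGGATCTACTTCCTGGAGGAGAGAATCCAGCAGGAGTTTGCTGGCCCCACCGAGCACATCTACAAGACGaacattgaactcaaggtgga
Cdk5rap2-206 exon of 77 bases: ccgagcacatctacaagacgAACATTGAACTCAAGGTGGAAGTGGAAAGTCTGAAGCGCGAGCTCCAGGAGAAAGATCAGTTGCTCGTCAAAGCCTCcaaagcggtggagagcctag

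Wdr62 is a scaffold of the spindle poles that binds the kinase JNK and interacts with Aspm. Wdr62 (ENSMUSG00000037020, chr7:30240138-30280419, minus strand) was at 16.71 TPM in replicate 2, against 13.25 TPM in replicate 1, a mean of 14.98 ± 2.45 TPM. Its counts went the other way, with 1149 in replicate 2 and 1224 in replicate 1, and the ratio from counts was -0.01 (interval -0.13 to 0.10), with 51.5% of all genes above it. It was the member whose interval included 0. In TPM, with a pseudocount of 0.1, the ratio was 0.33. The measures differ mainly through the effective length of the gene, an average over its transcripts, which was 2836.35 bases in replicate 2 and 3415.71 bases in replicate 1, a difference of -17.0%.

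The transcripts of Wdr62 show where that difference lay. The full-length coding transcript Wdr62-201 was at 4.78 TPM (28.6% of the gene) in replicate 2 and 6.21 TPM (46.8%) in replicate 1, from 538.11 estimated counts in replicate 2 and 778.96 in replicate 1. The short transcript Wdr62-207, of 648 bases and annotated as retaining an intron, was at 3.90 TPM (23.3%) in replicate 2, against 1.47 TPM (11.1%) in replicate 1, from 51.85 counts in replicate 2 and 21.85 in replicate 1. Wdr62-205, of the nonsense mediated decay class, was at 3.21 TPM (19.2%) in replicate 2, against 1.99 TPM (15.01%) in replicate 1. Another coding transcript, Wdr62-204, was at 2.29 TPM (13.7%) in replicate 2, against 1.83 TPM (13.8%) in replicate 1. Coding transcripts together held 42.3% of the TPM in replicate 2 and 60.6% in replicate 1, and intron-retaining ones 38.5% in replicate 2 and 24.4% in replicate 1. By counts the coding share was 62.0% in replicate 2 and 76.4% in replicate 1, that of the nonsense mediated decay class (Wdr62-205) 31.6% in replicate 2 and 20.5% in replicate 1, and the intron-retaining share 6.39% in replicate 2 and 3.16% in replicate 1. By counts, then, most of the difference in share was in Wdr62-205, and by TPM most of it was in the short intron-retaining transcripts. Among the 7 members with more than 1 transcript in the tables, the coding TPM share of Wdr62 was the furthest below its value in replicate 1, whereas in Cep135 it was above. Because the split between transcripts is an estimate from reads and each side is 1 library, the difference has no replicate check.

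Wdr62-205 resembles Wdr62-201 closely. It has 58 bases of coding sequence that Wdr62-201 lacks, which shift the reading frame, and it lacks 9 bases that Wdr62-201 has at chr7:30243034-30243042. The 58 bases lie at chr7:30242878-30242935 (minus strand, mm10) and are shown, in capitals with 20 bases on each side, since reads over them tell the pair of transcripts apart.
Wdr62-205 segment of 58 bases: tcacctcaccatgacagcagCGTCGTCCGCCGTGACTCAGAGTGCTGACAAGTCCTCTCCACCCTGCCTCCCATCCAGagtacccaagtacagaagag

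Aspm, which binds the ends of microtubules at the spindle poles, had the second highest ratio of the members. Aspm (ENSMUSG00000033952, chr1:139454772-139494091, plus strand) was at 15.70 TPM in replicate 2, against 10.33 TPM in replicate 1, a mean of 13.015 ± 3.797 TPM. It had 3717 counts in replicate 2 and 2726 in replicate 1, in the 1 transcript of the deposited table, of 9866 bases with 28 exons. The ratio was 0.52 (interval 0.45 to 0.60), and 6.75% of all genes were above it. Its depth in counts was second to that of Cit, although its level per length was seventh. The ratio of Aspm was therefore known within a narrower counting interval than that of Cenpj.

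Mcph1 encodes microcephalin, which holds back condensation of the chromosomes before mitosis and has ties to the checkpoint kinase Chek1 and to condensin. Mcph1 (ENSMUSG00000039842, chr8:18595131-18803189, plus strand) was at 16.94 TPM in replicate 2, against 13.91 TPM in replicate 1, a mean of 15.4 ± 2.14 TPM. Counts of 1608 in replicate 2 and 1390 in replicate 1 gave a ratio of 0.29 (interval 0.18 to 0.39), with 17.9% of all genes above it. It spans 208 kb and contains Angpt2, on the opposite strand, at 3.93 TPM in replicate 2, against 5.03 TPM in replicate 1. Mcph1-201 held 69.6% of the TPM in replicate 2 and 64.1% in replicate 1, and Mcph1-206, annotated as retaining an intron, held 17.4% in replicate 2 and 15.5% in replicate 1.

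Cit encodes citron kinase, a scaffold of the midbody, and was the highest member in both pools. Cit (ENSMUSG00000029516, chr5:115845278-116008947, plus strand) was at 34.00 TPM in replicate 2, against 28.48 TPM in replicate 1, a mean of 31.2 ± 3.90 TPM. Its 5066 counts in replicate 2 and 4704 in replicate 1 gave a ratio of 0.18 (interval 0.13 to 0.24), the lowest after Wdr62, and 26.9% of all genes exceeded it. The gene also has shorter forms that start inside it and lack the kinase domain at the amino end, known from neurons as citron-N. The full-length transcript Cit-201 was at 19.71 TPM (58.0%) in replicate 2, against 16.46 TPM (57.8%) in replicate 1. Of 18 transcripts in the table, 3 start well inside the gene and end in its last part, short of its 3′ end. None of these 3 is in the coding class: Cit-213 and Cit-216 are annotated as processed transcripts and Cit-205 as nonsense mediated decay. Whether they stand for citron-N was not tested. The longest of them, Cit-213, starts 79.997 kb past the start of the full form, after 466 of its codons, and was at 1.17 TPM (3.44%) in replicate 2, against 0.90 TPM (3.16%) in replicate 1. Another, Cit-216, had no counts in either library, and the 3 together were at 1.47 TPM (4.32%) in replicate 2, against 1.02 TPM (3.58%) in replicate 1. By counts Cit-201 held 88.8% in replicate 2 and 89.0% in replicate 1, so the full-length form was the main one by either measure. Cit-215, annotated as retaining an intron, held 18.2% in replicate 2 and 18.4% in replicate 1, but 4.64% of the counts in replicate 2 and 4.74% in replicate 1, since it is short.

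**Figure D3:**
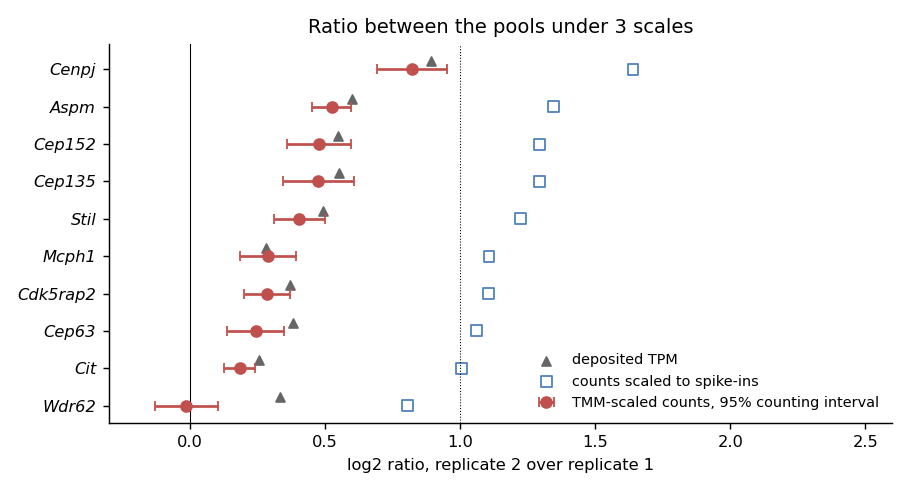
Log2 ratio of replicate 2 over replicate 1 (x axis) for each member (rows) on 3 scales. Red points with 95% counting intervals are TMM-scaled counts, triangles deposited TPM with a pseudocount of 0.1, and squares counts scaled to spike-ins; Wdr62 is at -0.01, 0.33 and 0.81 on these scales, and Cenpj is highest on all 3.

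**Figure D4:**
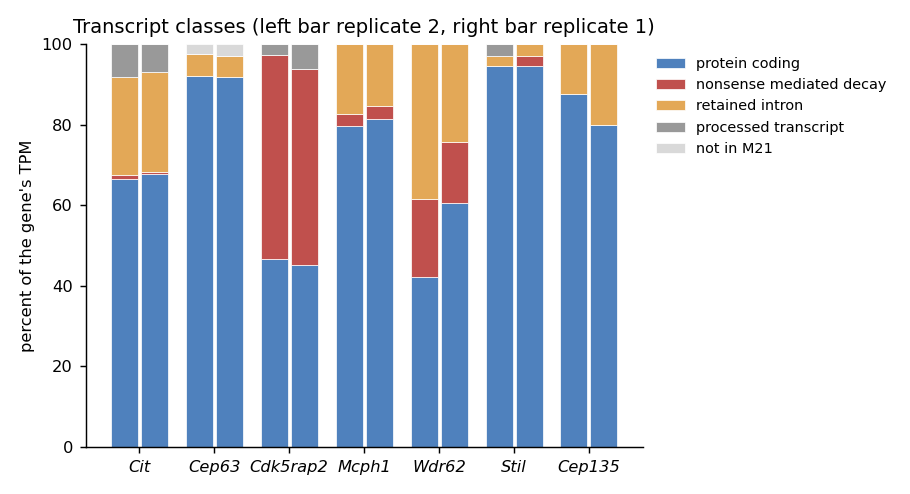
Percent of the TPM of a gene (y axis) in each annotated transcript class (colours) for the 7 members with more than 1 transcript in the deposited tables, with replicate 2 as the left and replicate 1 as the right bar of each pair. In Wdr62 the coding class is 42.3% in replicate 2 and 60.6% in replicate 1, in Cep135 it is 87.7% in replicate 2 and 79.8% in replicate 1, and in Cdk5rap2 it is under 50% in both pools.

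Other genes of the same machinery were taken from lists for each role. All genes of the 5 lists that follow were detected, and none was 2-fold apart between the pools. Centriole duplication and elongation genes were higher in replicate 2 in 14 of 18 cases, with a median ratio of 0.24. Plk4, the kinase that Cep152 and Stil bind, was at 59.56 TPM in replicate 2, against 40.71 TPM in replicate 1 (0.55), above every member in level. Sass6, which Stil recruits, was at 18.59 TPM in replicate 2, against 13.97 TPM in replicate 1 (0.33). The list ran in level from Cetn3, a centrin, at 151.65 TPM in replicate 2, against 121.18 TPM in replicate 1, to Rttn at 4.62 TPM in replicate 2, against 3.31 TPM in replicate 1. Ppp1r35 had its lowest ratio (-0.49).

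The list of pericentriolar material, the surroundings of Cdk5rap2, had 9 of 13 genes higher in replicate 2 and a median of 0.15. Pcnt, the scaffold pericentrin that binds Cdk5rap2, was at 14.68 TPM in replicate 2, against 10.27 TPM in replicate 1 (0.44). The gamma-tubulin gene Tubg1 was at 115.12 TPM in replicate 2, against 113.08 TPM in replicate 1 (-0.05), and its near copy Tubg2 at 2.40 TPM in replicate 2, against 3.86 TPM in replicate 1 (-0.76). Spindle pole genes, the surroundings of Aspm and Wdr62, were higher in replicate 2 in 19 of 21 cases, with a median of 0.23. They ran from Tacc3 at 260.10 TPM in replicate 2, against 208.62 TPM in replicate 1, to Insc at 8.78 TPM in replicate 2, against 6.05 TPM in replicate 1. Hmmr, a microtubule-binding protein of the spindle poles, had the highest ratio of that list (0.50), at 45.09 TPM in replicate 2, against 32.28 TPM in replicate 1.

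Midbody and cytokinesis genes, the surroundings of Cit, were higher in replicate 2 in 12 of 14 cases, with a median of 0.31. The kinesin Kif20b had the highest ratio (0.78), at 20.74 TPM in replicate 2, against 11.40 TPM in replicate 1. The GTPase Rhoa, to which citron binds, had the lowest (-0.51), at 227.96 TPM in replicate 2, against 307.31 TPM in replicate 1. The G2/M checkpoint and condensin list, the surroundings of Mcph1, had 12 of 14 genes higher in replicate 2 and a median of 0.41, and 4 of them were 1.5-fold or more higher. The condensin subunit Smc4 was at 143.61 TPM in replicate 2, against 80.43 TPM in replicate 1 (0.84), and Chek1 at 42.48 TPM in replicate 2, against 26.60 TPM in replicate 1 (0.71). Set, a partner that Mcph1 binds, was at 673.99 TPM in replicate 2, against 483.91 TPM in replicate 1 (0.40).

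Other genes mutated in primary microcephaly, most of which act outside the centrosome, were all detected, 20 of 20 that could be matched out of 21 listed. Of these 16 were higher in replicate 2. The median ratio was 0.35 for the members, against 0.19 for this list. The condensin subunit Ncapd2 was highest in level, at 197.89 TPM in replicate 2, against 159.46 TPM in replicate 1, and the kinesin Kif14, which binds citron at the midbody, was lowest at 5.75 TPM in replicate 2, against 4.53 TPM in replicate 1. The kinetochore motor Cenpe had the highest ratio (0.90), at 26.59 TPM in replicate 2, against 13.50 TPM in replicate 1, and Wdfy3, a protein of selective autophagy, the lowest (-0.30), at 29.48 TPM in replicate 2, against 35.94 TPM in replicate 1. The median level was 14.7 TPM for the members, against 36.3 TPM for this list. With spike-in scaling the medians of this list and the 5 before it lay between 0.97 and 1.23, and all genes named from them were above 0. Sass6, Kif14 and Ncapd3 are in this list and also in lists before it. Ccnb1 and Cdk1 of the G2/M list are also among the proliferating cell genes below. The counts and medians of these lists thus share some genes. No test of the differences between these lists and the members was made.

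**Figure D5:**
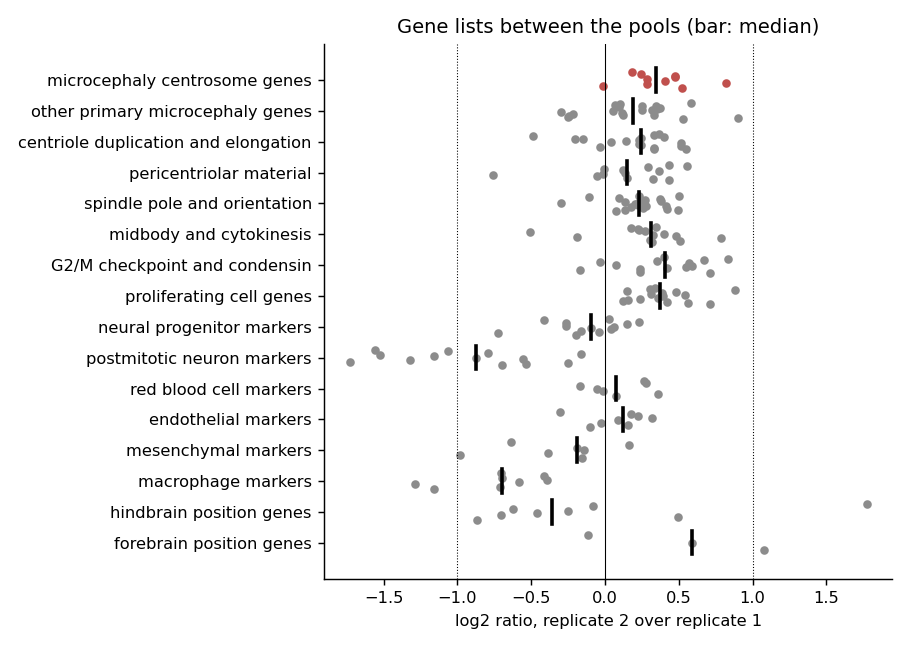
Log2 ratio of replicate 2 over replicate 1 (x axis) for each gene averaging 1 TPM or more (points) in the members (red) and 15 other lists (rows), with the median as a bar and dotted lines at 2-fold. The median is 0.35 for the members, 0.37 for proliferating cell genes, -0.10 for neural progenitor markers and -0.87 for postmitotic neuron markers.

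Marker lists of cell types lay on both sides of the typical gene. All 16 proliferating cell genes were higher in replicate 2, with a median of 0.37 and a summed level of 4126.12 TPM in replicate 2, against 3086.55 TPM in replicate 1. Within it Mki67 was at 37.84 TPM in replicate 2, against 21.82 TPM in replicate 1 (0.71), and Cenpf, a gene of G2 and mitosis, at 102.37 TPM in replicate 2, against 56.45 TPM in replicate 1 (0.88). Both ratios were above the median of the list, and that of Cenpf was its highest. Neural progenitor markers were higher in replicate 2 in 5 of 13 cases (median -0.10), with a summed level of 2188.5 TPM in replicate 2, against 2575.54 TPM in replicate 1. Postmitotic neuron markers were higher in replicate 2 in none of 13 cases (median -0.87), with sums of 1541.04 TPM in replicate 2, against 2356.87 TPM in replicate 1, and 6 of them were 2-fold or more higher in replicate 1. Macrophage markers were higher in replicate 2 in none of 8 (median -0.70, in sum 61.69 TPM in replicate 2, against 99.32 TPM in replicate 1), and mesenchymal markers in 1 of 7 (median -0.19, in sum 537.02 TPM in replicate 2, against 627.97 TPM in replicate 1). Red blood cell markers were higher in 4 of 7 (median 0.07, in sum 20029.7 TPM in replicate 2, against 18380.2 TPM in replicate 1), and endothelial markers in 5 of 8 (median 0.12, in sum 183.42 TPM in replicate 2, against 155.63 TPM in replicate 1). With spike-in scaling the medians were 1.19 for proliferating cell genes, 0.72 for progenitors, -0.05 for neurons, 0.11 for macrophages, 0.63 for mesenchyme, 0.89 for red blood cells and 0.94 for endothelium. No marker of these lists was at 0 counts in both libraries. The part of the cell makeup in the ratios of the members was not tested.

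The labelled tissue was checked against position genes. Of 8 hindbrain genes 7 were detected, the exception being Egr2 at 1.72 TPM in replicate 2, against 0.45 TPM in replicate 1, with a summed level of 190.96 TPM in replicate 2, against 239.3 TPM in replicate 1. Their median ratio was -0.36, with 2 of 8 higher in replicate 2, and 0.46 with spike-in scaling. Of 5 forebrain genes 2 were detected, with sums of 7.96 TPM in replicate 2, against 5.11 TPM in replicate 1 and, over the 3 that averaged 1 TPM or more, a median ratio of 0.59.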

How the data were processed

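The deposited tables, 1 gene table and 1 transcript table per library, give each row an expected count per the file headers, an estimate that divides reads with several possible sources. TPM, posterior mean TPM and FPKM are given beside it, per the file headers. The transcript tables also hold a percent of the gene's abundance per transcript, per the file headers; the shares printed here were computed anew, from TPM. The deposited file notes name the mm10 assembly and annotation M4. Not given in the sources used here were the aligner, the quantification program, strandedness and any removal of ribosomal RNA. The effective length was the length less 99 bases, so short transcripts gain TPM from few counts.

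Gene identifiers without version were matched to GENCODE M21 (mm10) for 42462 of 43346 annotated genes. Expected counts were rounded to whole numbers, and those in annotated genes summed to 36382223 in replicate 2 and 38170078 in replicate 1, without 97 spike-ins and 26248 tRNA rows. TMM factors (edgeR 4.0.16, R 4.3.3) came from the 15006 genes averaging 1 TPM or more, and ratios used a prior count of 2. Levels are in TPM, and ratios are from counts unless said otherwise. Beyond replicate numbers and embryo counts nothing says how separate the pools were, so the SD describes these 2 pools, and its spread may be technical.

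The members and all gene lists were chosen with earlier results of these data known. Of members with more than 1 transcript in the tables, the transcripts of at least 10% of TPM in either library were named. Also named were all 10 members, the Cit forms that start inside the gene, and genes of highest and lowest level or ratio in a list. Outside that rule, Sass6, Pcnt and Chek1 were chosen after their values were seen, for their ties to the members. A list gene that the rule picks is not reported here. With 2 libraries no likeness of pattern between genes could be measured. Motifs were searched in RefSeq windows (GRCm38.p6). Alternatives were other scalings (DESeq2 1.42.0 size factors, total count, spike-ins), prior counts, measures and filters, each library left out and, chosen after seeing the data, trends on GC content, length and expression removed (lowess, statsmodels 0.14.6, span 0.3). Intervals came from scipy 1.17.1, figures from matplotlib 3.10.9, and tables from pandas 2.3.3 in Python 3.11.15.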

Additional observations from a re-analysis of the deposited data

How the results depend on the processing

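All 10 members were detected under every alternative tried for that count: posterior mean TPM, FPKM, TPM without spike-ins and tRNAs, a limit of 5 TPM, and each library alone (10 and 10). The count of members 2-fold apart, 0 as reported, was 9 with spike-in scaling and 1 at a limit of 1.5-fold. The median ratio of the members, 0.35 as reported, was 1.17 with spike-in scaling, 0.44 and 0.42 from deposited TPM with pseudocounts of 0.1 and 1, and 0.26 with the trend on GC content removed; it was 0.32 to 0.36 under the other alternatives. The ratio of Wdr62 was -0.01 as reported, and it was above 0 with spike-in scaling (0.81), from TPM with pseudocounts of 0.1 (0.33) and 1 (0.31), without a filter on low genes (0.00076) and with the GC trend removed (0.059). No other ratio changed sign. FPKM moved the levels of 9 of 10 members by more than 1 SD, since it is on another scale. Leading shares from expected counts moved by more than 1 SD in 6 of 7 genes and those from posterior mean TPM in 4 of 7. Each gene's own SD set that limit. Cep63-206 passed it at 82.6% from counts, against 82.5%, but Wdr62-201 did not at 30.7% from posterior mean TPM, against 37.7%. By posterior mean TPM, Wdr62-201 led in replicate 1 (39.0%). In replicate 2 it held 22.4%, below Wdr62-205 (24.1%) and Wdr62-207 (23.1%). The causes were not tested. No paired analysis was possible because there was 1 group. Depth limits each ratio through its counting interval, widest for Cep135, with 1116 counts in replicate 2 and 847 in replicate 1.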
